A study of Mus musculus with 24 samples.

Results

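Jun, the founding subunit of the transcription factor AP-1, was lower in the hindlimb buds of Nipbl+/- mouse embryos than in those of wild type embryos, while none of 9 other immediate early genes passed the test for genotype. The 10 immediate early genes described here are Jun, Junb, Jund, Fos, Fosb, Fosl2, Egr1, Ier2, Atf3 and Btg2. They were chosen by name, with earlier results of these data known. Each was measured by the 1 probe set whose only listed gene symbol was its own. They make up 10 of the 19937 genes measured this way. The study asked how a partial loss of Nipbl, the protein that loads cohesin onto chromosomes, alters gene expression in the developing limb. There were 12 Nipbl+/- embryos, which carry 1 mutant copy of Nipbl in every cell and come from the RRS strain, and 12 wild type embryos, all at E10.5, and the genotypes were littermates matched for stage. The left and right hindlimb buds of each embryo gave 1 RNA sample, which was hybridised to 1 Affymetrix Mouse Gene ST array, and no embryo received a treatment. All values below are log2 intensities as the authors normalized them, and a difference of log2 values is also given as the Nipbl+/- to wild type ratio on the linear scale.

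Immediate early genes are transcribed within minutes of a stimulus without the need for new protein, and their mRNAs are short-lived. Growth factors and cell stress reach them through MAP kinases and through the factors SRF, with its ELK partners, and CREB. Jun, Junb, Jund, Fos, Fosb and Fosl2 encode basic leucine zipper proteins that pair to form AP-1, the Fos proteins only together with a Jun protein. In the embryonic limb bud AP-1 genes are also expressed as part of normal development, and cutting and handling tissue before lysis is known to induce many of them.

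The promoters of Jun, Fos and Fosb are printed because Jun was the gene called by genotype and Fos with Fosb was the pair with the highest correlation between embryos. The 250 bases before each start are taken from RefSeq (GRCm38.p6), in which 8 of the 10 genes had a promoter entry, and each runs 5′ to 3′ on the strand of its gene. Capitals mark TGACATCA in Jun, and TGACGT and TATAAA in Fos.
Jun: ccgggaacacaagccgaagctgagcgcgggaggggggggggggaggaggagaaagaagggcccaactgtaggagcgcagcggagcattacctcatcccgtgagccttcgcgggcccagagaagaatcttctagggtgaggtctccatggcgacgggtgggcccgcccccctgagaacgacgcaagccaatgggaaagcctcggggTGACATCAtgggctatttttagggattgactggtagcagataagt
Fos: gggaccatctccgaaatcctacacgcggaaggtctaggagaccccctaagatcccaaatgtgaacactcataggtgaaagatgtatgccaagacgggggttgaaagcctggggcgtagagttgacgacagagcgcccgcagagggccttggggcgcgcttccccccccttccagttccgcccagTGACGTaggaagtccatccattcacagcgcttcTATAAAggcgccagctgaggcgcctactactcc
Fosb: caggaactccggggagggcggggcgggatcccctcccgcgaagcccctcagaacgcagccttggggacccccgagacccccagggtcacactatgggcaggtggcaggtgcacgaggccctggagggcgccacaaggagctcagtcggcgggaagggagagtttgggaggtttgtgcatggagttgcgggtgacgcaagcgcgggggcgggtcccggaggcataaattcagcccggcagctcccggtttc
The Jun promoter, at chr4:95052223-95052472 on the minus strand, held TGACATCA at positions -45 to -38 from the start, a variant AP-1 site that Jun and ATF proteins bind. These 8 letters, searched on both strands, were present in 2.93% of 32851 RefSeq promoters of the same length. The Fos promoter, at chr12:85473640-85473889 on the plus strand, held TGACGT, the core of the CREB element, at positions -66 to -61, and the TATA box letters TATAAA at positions -33 to -28. TGACGT was found in 6.47% of all promoters on either strand, and TATAAA in 7.59% on the given strand. The Fosb promoter, at chr7:19310046-19310295 on the minus strand, held none of the motifs searched. Of the other genes with an entry, Btg2 held the full CREB element TGACGTCA at -166 to -159, present in 1.55% of all promoters and containing TGACGT, and Atf3 held TGACGT at -8 to -3. The AP-1 letters TGACTCA (4.46% of all promoters) and the CArG box bound by SRF (1.47% of all promoters) were found in none of the 8. These matches describe the letters of the window only, and sites farther from the start were not searched. Egr1 and Ier2 had no entry and were not searched.

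Nipbl itself, the targeted gene, averaged 9.86 ± 0.121 in Nipbl+/- and 10.52 ± 0.119 in wild type embryos (SD, n = 12 each), for a ratio of 0.630 (limma, adjusted p = 2.42e-09), and the genotypes did not overlap. Array medians ran from 7.24 to 7.39. The spread of values within an array, measured as the interquartile range over all probe sets, ran from 3.34 to 3.84 and was 3.65 ± 0.140 in Nipbl+/- and 3.64 ± 0.131 in wild type embryos (SD, n = 12 each). The arrays of Nipbl+/- embryo 2, at 3.40, and wild type embryo 3, at 3.34, lay more than 3 median absolute deviations below the median of 3.68 and are called narrow arrays below. By Xist and Y-linked genes, 3 Nipbl+/- and 8 wild type embryos were female. Of 10 limb bud mesenchyme markers, all were measured, and the mean of their log2 values ran from 10.99 to 11.17 in Nipbl+/- and from 11.04 to 11.14 in wild type embryos.

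The log2 intensity of Jun ran from 8.62 to 9.22, with a median of 9.0, in Nipbl+/- embryos, and from 9.02 to 9.58, with a median of 9.37, in wild type embryos. The genotypes overlapped in part, since 7 Nipbl+/- embryos lay below the lowest wild type embryo and 9 wild type embryos lay above the highest Nipbl+/- embryo. The lowest Jun value of each genotype came from its narrow array. The means were 8.95 ± 0.182 in Nipbl+/- and 9.33 ± 0.197 in wild type embryos (SD, n = 12 each). The log2 difference was -0.38 (standard error 0.073), a ratio of 0.770 with a 95% confidence interval of 0.694 to 0.854, and its adjusted p was 0.00533 from limma. In 12 of 12 Nipbl+/- embryos Jun was under the wild type mean, and it held rank 71 by p among all genes. Across all genes, 0.527% were called lower in Nipbl+/- embryos and 0.286% were called higher, against 1 of 10 immediate early genes called lower and none called higher. Because the 10 genes were chosen with earlier results of these data known, this count cannot be read as an enrichment. In bulk tissue, fewer cells expressing Jun and less Jun RNA per cell cannot be told apart. Because the sexes were unequal, Jun was also compared within each sex. Among females it averaged 8.92 ± 0.180 in Nipbl+/- (SD, n = 3) and 9.33 ± 0.205 in wild type embryos (SD, n = 8), and among males it averaged 8.97 ± 0.192 in Nipbl+/- (SD, n = 9) and 9.33 ± 0.212 in wild type embryos (SD, n = 4). The log2 difference was -0.41 in females and -0.36 in males. Without the 2 narrow arrays it was -0.37 (adjusted p = 0.00341 from limma). The call held in the 10 alternative fits that could change it, with log2 differences from -0.39 to -0.35. In some of these fits the log2 difference could not move, and only its p-value could.

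**Figure D1:**
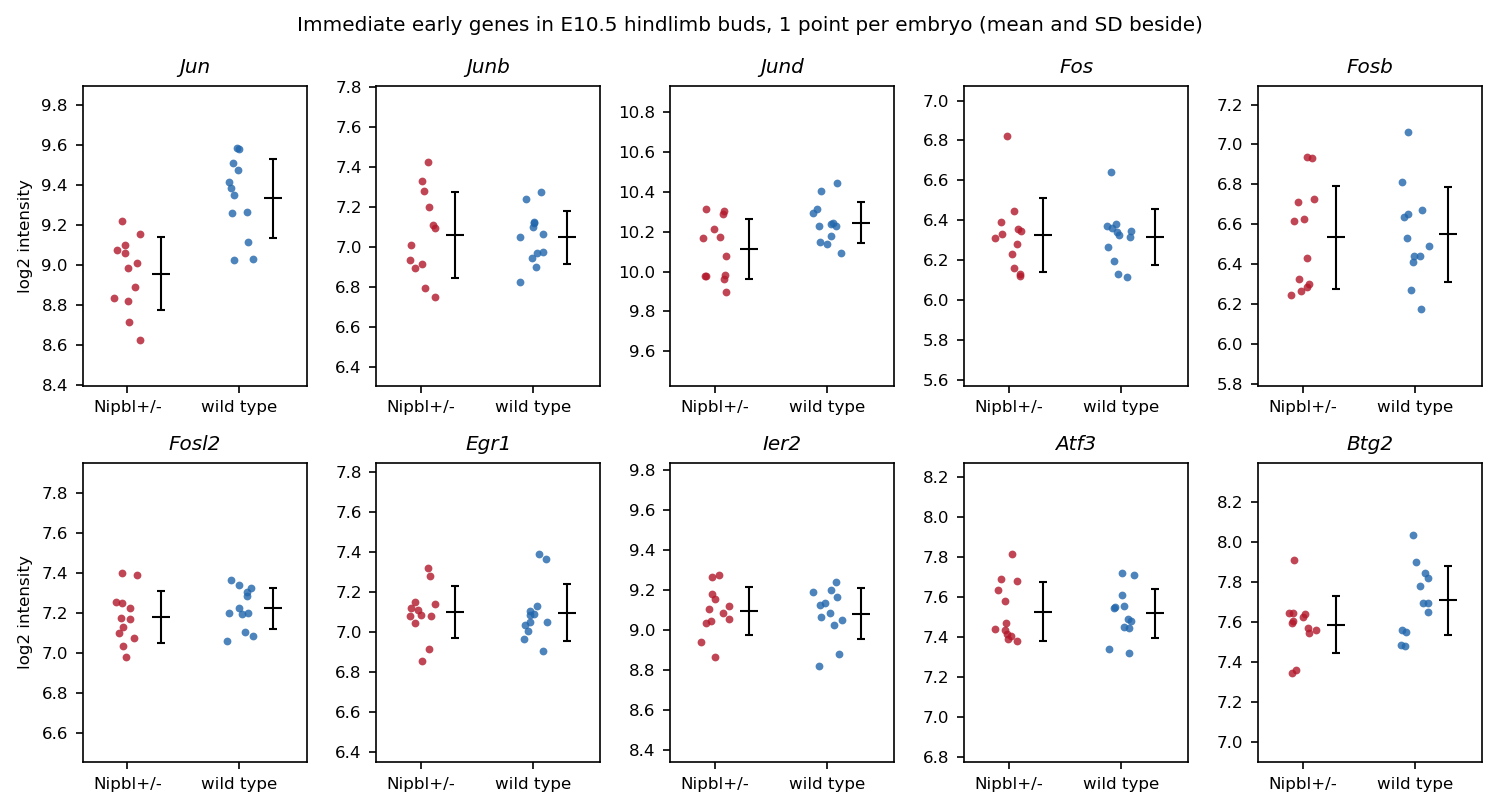
Log2 intensity of each immediate early gene in every embryo, with Nipbl+/- embryos in red on the left and wild type embryos in blue on the right, and black marks for mean and SD. Vertical axes differ between panels, and Jun is the panel in which the genotypes separate most, with 7 of 12 Nipbl+/- embryos below the lowest wild type embryo at 9.02.

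Neither Jund nor Junb was called. Jund, the family member that is expressed steadily and depends least on stimulation, ran from 9.90 to 10.31 (median 10.12) in Nipbl+/- and from 10.09 to 10.44 (median 10.23) in wild type embryos. Most of its range was shared, although 9 of 12 Nipbl+/- embryos had less than the mean of wild type. Its means were 10.11 ± 0.15 in Nipbl+/- and 10.24 ± 0.104 in wild type embryos (SD, n = 12 each), a ratio of 0.912 with an interval of 0.847 to 0.982, which did not pass after adjustment over all genes (unadjusted p = 0.0165, adjusted p = 0.344 from limma). Junb, which dampens Jun in many settings and is itself strongly inducible, ran from 6.75 to 7.42 (median 7.05) in Nipbl+/- and from 6.83 to 7.28 (median 7.06) in wild type embryos. The wild type range lay inside the Nipbl+/- range. Its ratio was 1.01 (interval 0.915 to 1.11, adjusted p = 0.988 from limma).

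None of the 3 Fos family genes was called. Fos and Fosb had low intensities, with means at percentiles 30.2 and 33.9 of all genes and below the lowest array median of 7.24. The means of Junb, Egr1 and Fosl2 were below it too, at percentiles 42.4, 43.0 and 44.4. At such intensities a lack of difference says little about the RNA of these genes. Fos, a rapidly induced partner of Jun, ran from 6.12 to 6.82 (median 6.32) in Nipbl+/- and from 6.12 to 6.64 (median 6.33) in wild type embryos, with means of 6.33 ± 0.187 in Nipbl+/- and 6.32 ± 0.138 in wild type embryos (SD, n = 12 each). Its ratio was 1.01, with an interval of 0.920 to 1.10 and an adjusted p of 0.989 from limma, and the highest Nipbl+/- value came from narrow array 2. Fosb, which is also known for a truncated splice form that accumulates in neurons, ran from 6.25 to 6.94 (median 6.52) in Nipbl+/- and from 6.18 to 7.06 (median 6.51) in wild type embryos. The genotypes overlapped over nearly their whole range, the highest embryo of each genotype was its narrow array, and the ratio was 0.990 (interval 0.867 to 1.13, adjusted p = 0.990 from limma). Fosb varied more between embryos of 1 genotype than most genes, with a residual SD of 0.248 that was above 96.8% of all genes. Fosl2, a Fos protein that acts in bone and cartilage cells, ran from 6.98 to 7.40 (median 7.17) in Nipbl+/- and from 7.06 to 7.36 (median 7.21) in wild type embryos, with a ratio of 0.972 (interval 0.907 to 1.04, adjusted p = 0.898 from limma).

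Atf3, a stress-induced factor that can pair with Jun proteins, ran from 7.38 to 7.82 (median 7.46) in Nipbl+/- and from 7.32 to 7.72 (median 7.52) in wild type embryos. Its ranges overlapped and its ratio was 1.01 (interval 0.932 to 1.09, adjusted p = 0.989 from limma). Egr1, a zinc finger factor and a classic target of SRF, ran from 6.85 to 7.32 (median 7.10) in Nipbl+/- and from 6.90 to 7.39 (median 7.07) in wild type embryos, with a ratio of 1.0 (interval 0.925 to 1.08, adjusted p = 0.999 from limma). Here too the genotypes shared nearly all of their range. Ier2, a small nuclear protein named for its early induction, ran from 8.86 to 9.27 (median 9.09) in Nipbl+/- and from 8.82 to 9.24 (median 9.10) in wild type embryos, with a ratio of 1.01 (interval 0.939 to 1.08, adjusted p = 0.984 from limma). Btg2, an antiproliferative gene induced by p53 and by growth factors, ran from 7.34 to 7.91 (median 7.60) in Nipbl+/- and from 7.48 to 8.03 (median 7.70) in wild type embryos. In 11 of 12 Nipbl+/- embryos it was under the wild type mean, but its ratio of 0.919 did not pass (interval 0.841 to 1.0, unadjusted p = 0.0623, limma's adjusted p = 0.582).

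**Figure D2:**
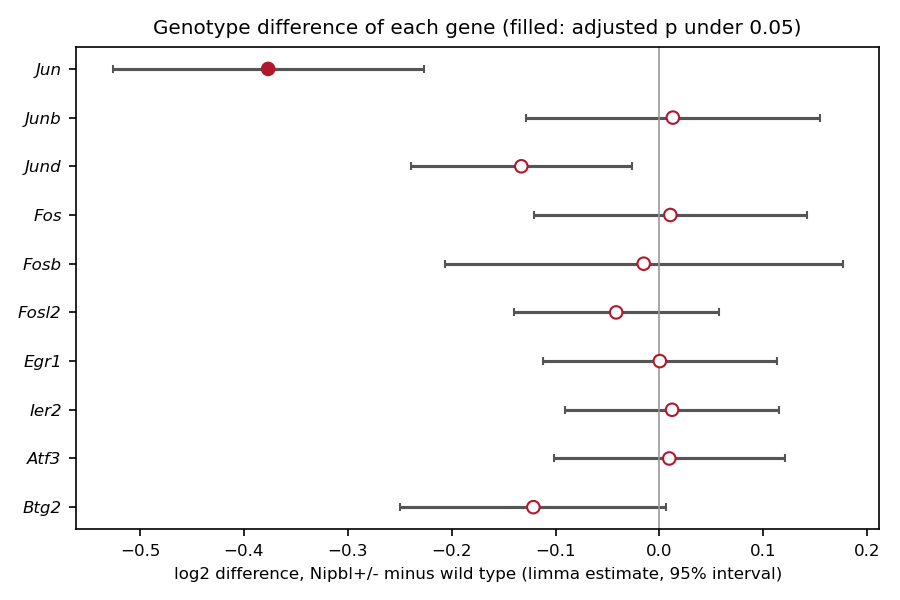
Nipbl+/- minus wild type log2 difference for the 10 immediate early genes, each as a point with its 95% confidence interval as a bar, and filled where the adjusted p from limma was under 0.05. Jun lies at -0.38, Jund and Btg2 at -0.13 and -0.12, and the other 7 genes lie between -0.04 and 0.01.

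Jun was also set against the mean of the 9 other immediate early genes within each embryo, as a description with no test. Jun minus the mean of the 9 others ran from 0.826 to 1.64 in Nipbl+/- and from 1.36 to 1.90 in wild type embryos. The mean of the 9 others was 7.61 ± 0.0812 in Nipbl+/- and 7.64 ± 0.0634 in wild type embryos (SD, n = 12 each). The size of such a mean has no meaning of its own, because probe sets differ in brightness, and only its difference between genotypes can be read.

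The variation between embryos of 1 genotype was compared as well, since an induced response need not reach every embryo. None of the 10 genes was called wider or narrower in Nipbl+/- embryos, with adjusted p from 0.995 to 0.996 by limma on absolute deviations from the genotype median. Across all genes 0% were called wider and 0% narrower, although 486 were wider and 343 narrower at an unadjusted p under 0.05, and none of the 10 was among these. The largest difference in SD was that of Junb, whose SD was 0.215 in Nipbl+/- and 0.134 in wild type embryos.

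Covariation across embryos was examined because genes induced together by handling would be high in the same embryos. Each value was taken as its deviation from the mean of its own genotype, and all 45 pairs of the 10 genes were correlated over 24 embryos, with permutation p-values adjusted over the 45 pairs. Of these, 29 were positive, the median r was 0.15, and 3 pairs passed, all positive. The share of called pairs among all genes was not computed. Among all other genes, 19.6% had r over 0.5 with Fos and 11.4% with Jun, so an r over 0.5 was common on these arrays. Fos and Fosb had the highest correlation, with r = 0.701 (permutation p = 1.5e-04, adjusted p = 0.00675) and rho = 0.693 (permutation p = 4.2e-04, adjusted p = 0.0189). It was 0.751 within Nipbl+/- and 0.639 within wild type embryos, and 0.661 without the 2 embryos farthest from the median of Fos. Junb and Fosl2 followed with r = 0.640 (permutation p = 0.0016, adjusted p = 0.0297) and rho = 0.612 (permutation p = 0.00235, adjusted p = 0.0352), at 0.802 within Nipbl+/- and 0.325 within wild type embryos, and at 0.520 without the 2 farthest embryos. Jun and Jund had r = 0.603 (permutation p = 0.00198, adjusted p = 0.0297) and rho = 0.607 (permutation p = 0.00223, adjusted p = 0.0352), at 0.837 within Nipbl+/- and 0.327 within wild type embryos, and at 0.608 without the 2 farthest embryos. Whether the correlations differed between genotypes was not tested.

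Jun formed no called pair with Fos, Fosb, Junb or Fosl2. Its r was -0.269 with Fos, -0.453 with Fosb, -0.366 with Junb and -0.253 with Fosl2, and -0.185 with the mean of the 9 others over 24 embryos. Within Nipbl+/- embryos the r of Jun was -0.630 with Fos, -0.710 with Fosb, -0.463 with Junb and -0.727 with Fosl2. Within wild type embryos these were 0.173, -0.199, -0.257 and 0.292, in the same order. With the array interquartile range removed they were 0.231, 0.269, -0.359 and 0.0683. Over all 24 embryos the most negative r of Jun was with Egr1, at r = -0.539 (permutation p = 0.00803, adjusted p = 0.0607) and rho = -0.523 (permutation p = 0.0111, adjusted p = 0.0994), which did not pass in the main setting. It was -0.618 within Nipbl+/- and -0.474 within wild type embryos, and -0.571 without the 2 farthest embryos. Egr1, Ier2, Atf3 and Btg2 were in none of the called pairs.

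**Figure D3:**
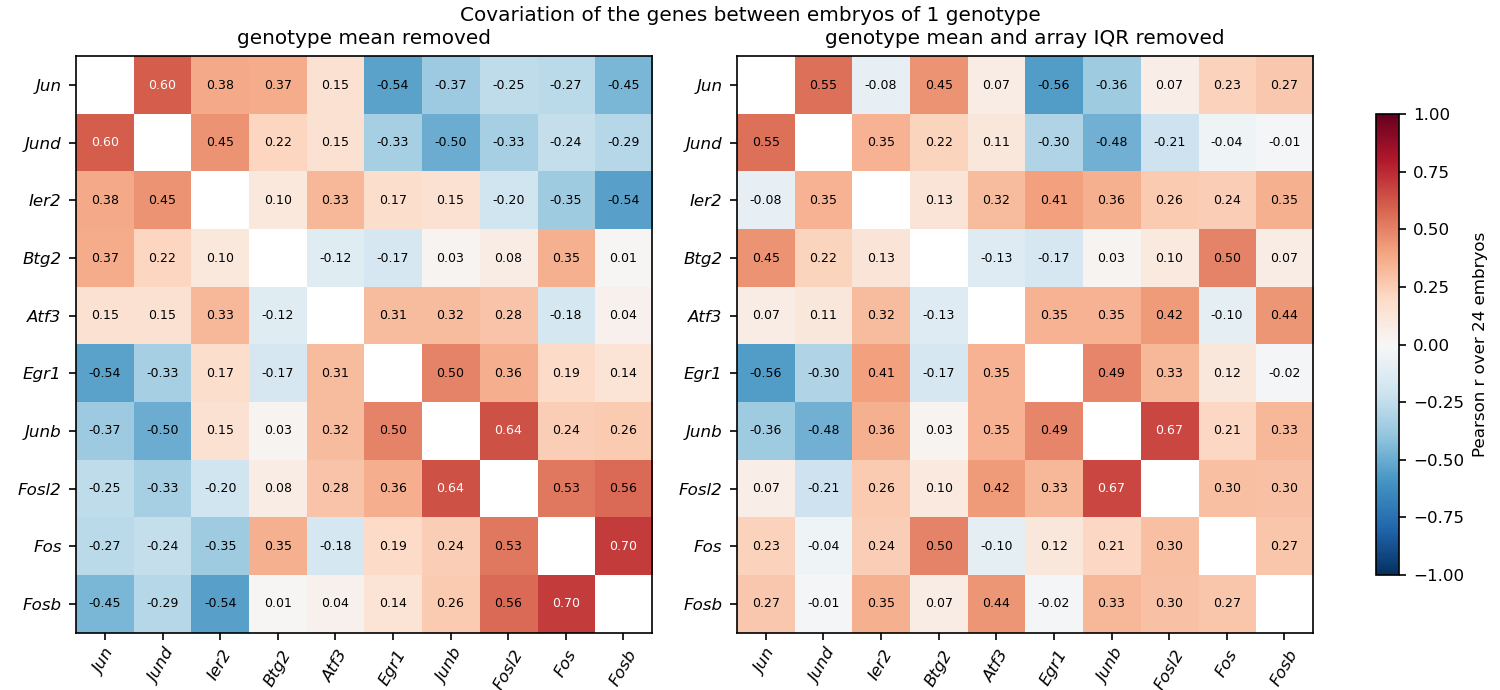
Pearson r of deviations from the genotype mean for the 45 pairs of immediate early genes over 24 embryos, as a colour scale from negative (blue) to positive (red), on the left with the genotype mean removed and on the right with the array interquartile range removed as well. On the left, Fos with Fosb (0.701), Junb with Fosl2 (0.640) and Jun with Jund (0.603) are the highest, and Jun with Egr1 (-0.539) is among the lowest; on the right, Fos with Fosb is at 0.274 and Junb with Fosl2 at 0.668.

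The width of the array moved with these correlations. The first principal component of the residuals of all genes held 34.3% of their variance and had r = 0.990 with the interquartile range of the array. Each of the 10 genes was set against it, with p-values adjusted over these 10 relations. Fosb had r = -0.910 (permutation p = 1e-05, the smallest these permutations can give, adjusted p = 1e-04; rho = -0.859), at -0.891 within Nipbl+/- and -0.932 within wild type embryos and at -0.860 without the 2 embryos with the most extreme ranges. Thus Fosb was high on narrow arrays in both genotypes. Fos had r = -0.679 (permutation p = 4.8e-04, adjusted p = 0.0016; rho = -0.650) and Fosl2 r = -0.504 (permutation p = 0.015, adjusted p = 0.03; rho = -0.519), while Ier2 went the other way with r = 0.707 (permutation p = 2.7e-04, adjusted p = 0.00135; rho = 0.620). Jun had r = 0.597 (permutation p = 0.00271, adjusted p = 0.00677; rho = 0.531), at 0.885 within Nipbl+/- and 0.315 within wild type embryos, and 0.392 without the 2 extreme embryos. Jund, Egr1, Atf3, Junb and Btg2 had r from -0.159 to 0.309 and did not pass. Jund, Egr1 and Junb differed in sign between genotypes. Their r was 0.705, -0.650 and -0.429 within Nipbl+/- embryos and -0.293, 0.310 and 0.363 within wild type embryos. Atf3 and Btg2 were positive in both. Whether these r differed between genotypes was not tested. Relations to the array interquartile range were common on these arrays, since 27.4% of all genes had r over 0.5 and 28.3% had r under -0.5.

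**Figure D4:**
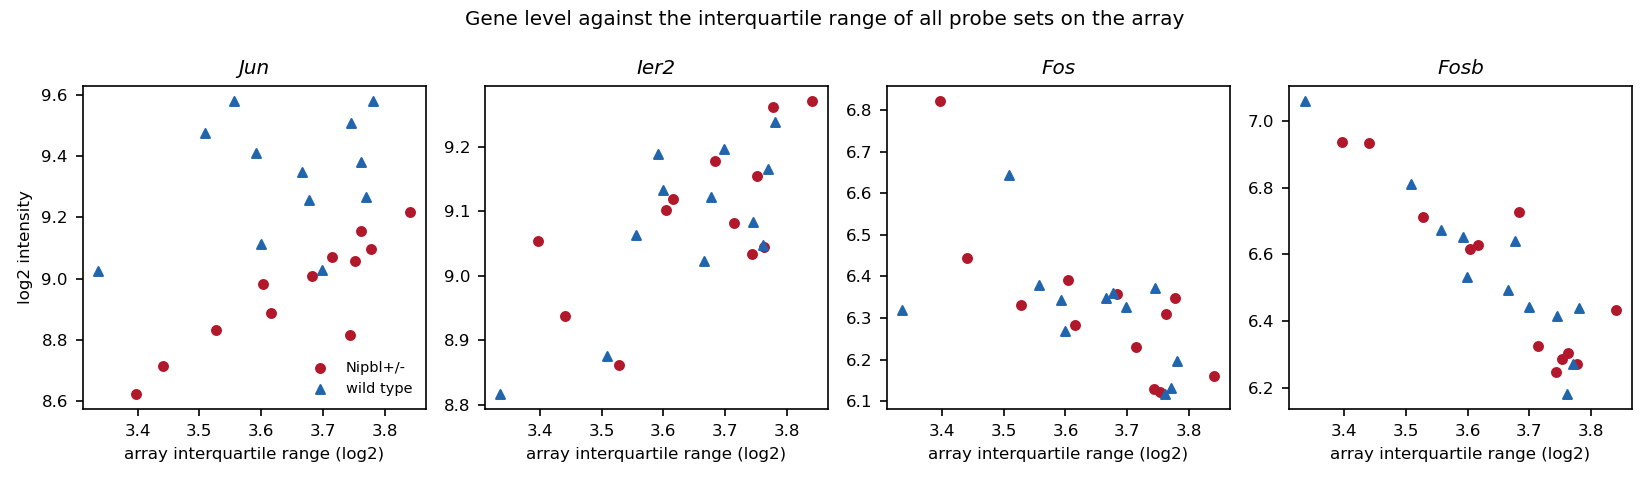
Log2 intensity of Jun, Ier2, Fos and Fosb against the interquartile range of all probe sets on the array in log2 units, with 1 point per embryo, Nipbl+/- as red circles and wild type as blue triangles. With r taken over deviations from the genotype mean, Fosb falls with a wider range (r = -0.910) and so does Fos (r = -0.679), whereas Ier2 (r = 0.707) and Jun (r = 0.597) increase with it.

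With the interquartile range removed from every gene, the correlation of Fos with Fosb was 0.274 (adjusted p = 0.378 by permutation) and that of Fosb with Fosl2, which had been 0.565, was 0.297. Fosb with Ier2, the lowest pair at r = -0.540 (adjusted p = 0.0607 by permutation), stood at 0.355. Junb with Fosl2 stayed at 0.668 (adjusted p = 0.0167 by permutation), and Jun with Jund stood at 0.549 but no longer passed (adjusted p = 0.119 by permutation). Without the 2 narrow arrays, Junb with Fosl2 had r = 0.564 and an adjusted p of 0.0622 by permutation. With the interquartile range as a covariate, the genotype difference of Jun had an adjusted p of 2.89e-04 from limma.

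The same question was put to all genes by adding the level of Fos, or of Jun, to the genotype fit. With Fos, 21.6% of all genes were called in the same direction and 12% in the opposite direction, and 2 of the 9 other immediate early genes were called, Fosb (adjusted p = 0.00173 from limma) and Fosl2 (adjusted p = 0.0332 from limma), both in the same direction. The count for the immediate early genes was thus near the background. Fosb ranked 597 among all genes by r with Fos. With the interquartile range removed, neither Fosb (adjusted p = 0.619 from limma) nor Fosl2 (adjusted p = 0.589 from limma) was called. With Jun, 9.05% of all genes were called in the same direction and 9.01% in the opposite direction, and the immediate early genes called were Jund in the same direction (adjusted p = 0.0266 from limma) and Egr1 in the opposite one (adjusted p = 0.0428 from limma). Their adjusted p-values were 0.184 and 0.163 with the interquartile range removed. Jund ranked 888 among all genes by r with Jun. The genes whose pattern was most like that of Fos over 24 embryos were Hsd17b6 (r = 0.879), Tacr3 (r = 0.879), Rtn4r (r = 0.870), Oas2 (r = 0.859) and 5031434C07Rik (r = 0.849). Their means lay at percentiles 13.7, 17.7, 46.1, 33.3 and 19.9 of all genes, in that order. Hsd17b6, Tacr3 and 5031434C07Rik were thus dimmer than Fos, at percentile 30.2. Once the interquartile range was removed, none of all genes was called with Fos in either direction. The genes whose pattern was most like that of Jun were Polr3gl (r = 0.893), Lrrc17 (r = 0.889), Ccdc80 (r = 0.878), Bmp5 (r = 0.866) and Npr2 (r = 0.857). No immediate early gene was among the closest 5 of either.

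Related genes were described from lists named for the same pathway. Because only 0.527% of all genes were called lower and 0.286% higher, few or no calls in lists this short say little. Of 38 other early response genes, all measured, 1 was called lower and none higher, with a median log2 difference of -0.03 beside -0.0049 over all genes. At an unadjusted p under 0.05, 8 of the 38 were lower and 1 was higher, beside 5.14% lower and 4.13% higher among all genes. The gene called was Nr4a2, an orphan nuclear receptor, at 9.0 ± 0.115 in Nipbl+/- and 9.20 ± 0.106 in wild type embryos (SD, n = 12 each), a ratio of 0.874 (limma, adjusted p = 0.0365) with 11 of 12 Nipbl+/- embryos below the wild type mean. The ratio of its relative Nr4a1 was 1.05 (limma, adjusted p = 0.645), and that of Klf10, a zinc finger gene induced by TGF-beta, was 1.10 (limma, adjusted p = 0.361). The secreted protein Ccn1, a target of SRF and YAP, stood at a ratio of 0.880 (limma, adjusted p = 0.182). Of 10 further AP-1 family genes, 9 were measured and none was called, including Maf (ratio 0.875, adjusted p = 0.132 from limma), Jdp2 (0.980) and Batf3 (1.03). Of 25 upstream genes, the MAP kinases and the SRF and CREB factors, 20 were measured and none was called, with the kinase Mapk14 at 1.05 (limma, adjusted p = 0.455) and Creb1 also at 1.05 (limma, adjusted p = 0.481). Of 14 heat shock genes, which respond to handling and temperature, 12 were measured and none was called, with the small chaperone Hspb1 at 1.08 (adjusted p = 0.570 from limma) and the cochaperone Bag3 at 0.930 (adjusted p = 0.429 from limma).

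Markers of the cell types in the bud were measured beside Jun. None of 6 measured erythroid, 8 endothelial and 8 macrophage markers was called by genotype, beside 0.286% called higher and 0.527% called lower among all genes. At these shares, no call in lists this short says little. The mean log2 level of the macrophage markers ran from 6.57 to 6.81 in Nipbl+/- and from 6.64 to 6.97 in wild type embryos, with a median log2 difference of -0.11, and 4 of the 8 were lower at an unadjusted p under 0.05 (5.14% of all genes), among them C1qb (ratio 0.848, adjusted p = 0.147 from limma) and Csf1r (ratio 0.915, adjusted p = 0.247 from limma). The mean level of the endothelial markers ran from 9.34 to 9.69 in Nipbl+/- and from 9.33 to 9.73 in wild type embryos. Over 24 embryos the deviation of Jun had r = 0.62 with the endothelial mean, 0.46 with the macrophage mean and 0.50 with the limb mesenchyme mean. It had r = 0.19 with the erythroid mean and 0.08 with the ectoderm mean. Values as high were not particular to cell type markers, since Jun had r = 0.63 with the mean of the upstream genes and 0.597 with the array interquartile range. The part of these cell types in the result for Jun was not tested. Of 10 mesenchyme markers, Lhx9, a LIM homeodomain gene of the distal bud, was called higher (ratio 1.11, adjusted p = 0.00698 from limma), and Hand2, a posterior factor, stood at 0.919 (limma, adjusted p = 0.208). Of 8 ectoderm markers, the basal keratin Krt5 was called lower (ratio 0.806, adjusted p = 0.00171 from limma), the epithelial adhesion protein Epcam stood at a ratio of 1.11 (limma, adjusted p = 0.254), and the median log2 difference of the list was -0.0015.

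The titles number the embryos from 1 to 12 in each genotype, without saying what a number marks. Between the Nipbl+/- and the wild type embryo of the same number, none of the 10 genes was correlated after adjustment over the 10 relations. Fosb was the most negative, at r = -0.666 and rho = -0.622 (permutation p = 0.0161, adjusted p = 0.161), and the array interquartile range itself had r = -0.403 between equal numbers. Egr1 was the most positive, at r = 0.576 and rho = 0.678 (permutation p = 0.0470, adjusted p = 0.202).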

How the data were processed

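Hindlimb bud RNA of 24 mouse embryos at E10.5 was hybridised to 1 array each. The authors pre-processed the array files in GenePattern, and the deposited values are log2 intensities per probe set, for which the submitters' processing notes name RMA (background correction, quantile normalization, summary). Its version is not given in the sources used. A change common to most genes can be hidden by such normalization. The genotypes were littermates, but the litter of each embryo is not given, so litter was not modelled and p-values measure the spread between these embryos. The number of arrays limits the precision.

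Of 28159 probe sets, 21640 had 1 symbol, 1321 had several and 5198 had none listed; probe sets with several or none were not named. The brightest probe set of each gene left 19937 genes. Genotypes were compared by limma 3.58.1 run in R 4.3.3 on the difference between Nipbl+/- and wild type; p-values were adjusted over all genes by Benjamini-Hochberg, and genes under 0.05 were called. Correlations used 100000 two-sided permutations within genotype in Python 3.11.15. No 2 arrays were identical. Tested on simulated data of 19937 genes in 12 embryos per genotype, the fit recovered 18% of genes at a log2 change of 0.15, 46% at 0.2, 90% at 0.3 and 98% at 0.45, with 2 false calls. The simulated noise was drawn independently for each gene and embryo. Variation shared between genes, which these arrays had, was thus left out, and the rates may not carry over to them.

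All 10 members were named. From each other list up to 2 genes per direction with the smallest p were named, and for Fos and Jun the 5 genes with the highest r. The members and lists were chosen with earlier results of these data known. Alternatives covered the probe set, a filter on genes in the lowest 25% of means, the variance model, array weights, replicate number, sex, scaling, array width, the first residual component, the other members as a covariate and the threshold. Leaving out narrow arrays and removing the array interquartile range were added after seeing the data.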

Additional observations from a re-analysis of the deposited data

How the results depend on the processing

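Each member has 1 probe set, and a looser threshold cannot lose a call, so averaging probe sets and the threshold of 0.25 say nothing about its stability. The genotype call of Jun held in the 10 other alternatives (adjusted p from 2.89e-04 to 0.0171 by limma), and none of these called another of the 10 genes at an adjusted p under 0.05. The gene filter, variance model, replicate number, first residual component and mean of the other members could not move the log2 difference, only its p-value. That component and that mean came from deviations from the genotype mean. Neither fit could therefore remove a shift shared by all embryos of a genotype. Jund reached an adjusted p from 0.159 to 0.472 and Btg2 from 0.227 to 0.630. Differences near 0 turned sign with array weights (Junb -0.0180, Fos -0.0299, Egr1 -0.0174), with the array interquartile range as a covariate (Fosb 0.0080) and without the narrow arrays (Junb -0.0294, Fos -0.0343, Egr1 -0.0216, Ier2 -0.00827). Over all genes, the counts called higher and lower were 101 and 180 with array weights, 186 and 303 with the interquartile range, 222 and 293 with the first residual component, and 242 and 380 at an adjusted p under 0.25; 35 were called higher with sex as a covariate.

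The replicate number was not treated as pairing the embryos. The deviations of same-numbered arrays correlated at -0.355 to 0.282 over genes, over 0.1 in 5 of 12 pairs. Of 24 arrays, 4 correlated best with their own number. Of the variance of these deviations, 34.3% lay in a component that followed the array interquartile range (r = 0.990). These values therefore cannot settle whether a number marks a shared litter or batch. With a replicate block, Jun kept its call (adjusted p = 0.00789 by limma) and no other immediate early gene gained one. In the fit on Fos the block left 1 immediate early gene called in the same direction, with 2091 and 914 of all genes called in the same and the opposite direction. In the fit on Jun it left 0 and 0 immediate early genes, and 1 and 0 of all genes. Among the 45 pairs it left 0 called, from 12 differences between embryos in place of 24 values.

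In the fit on Fos, 1 immediate early gene was called with each array median set to 0. With the interquartile range removed, 0 immediate early genes and 0 and 0 of all genes were called. In the fit on Jun, setting array medians to 0 gave 2 immediate early genes and 2743 genes in all in the opposite direction, trended robust variances gave 0 immediate early genes in the opposite direction, and removing the interquartile range gave 0 and 0 immediate early genes and 34 and 8 of all genes. Among the 45 pairs, positive calls numbered 1 with the first residual component removed, 5 with sex removed and 1 with the interquartile range removed, and negative calls numbered 3 with array medians at 0 and 2 with sex removed. Jun with Egr1 was among the negative calls in both of the last settings (adjusted p = 0.0438 and 0.0473 by permutation). The causes of these shifts were not tested.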
